A study of Mus musculus with 6 samples.

Results

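The 10 genes described here encode the AP-1 and EGR early response factors: the Fos proteins (Fos, Fosb, Fosl1 and Fosl2), the Jun proteins (Jun, Junb and Jund) and the early growth response factors Egr1, Egr2 and Egr3. They were chosen by name, and a probe set was taken for a gene where the platform annotation names that gene alone. All 10 were measured, by 16 of the 45037 probe sets without controls, and they are 10 of the 18193 genes named by such a probe set. RNA came from fibroblasts grown out of mouse embryos (MEFs), which are collagen-producing cells of connective tissue, of 2 genotypes: 3 samples labelled Atxn3-WT and 3 labelled Atxn3-KO, which lack a functional gene for the deubiquitinating enzyme ATXN3. The samples, called biological replicates, were hybridised to 1 Affymetrix mouse array each to ask which transcripts change when ATXN3 is lost. Both genotypes were grown in the same medium with serum, and no treatment is given for the array samples. The paper describes its mice in general as littermates but does not say if the MEFs came from littermates. Strain, embryo age, the number of embryos behind each sample and the time between the last change of medium and harvest are not given in the sources used here.

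AP-1 is a pair of basic leucine zipper proteins that binds DNA as a dimer: Jun proteins can pair with themselves or with a Fos protein, whereas Fos proteins need a Jun partner. EGR factors are zinc finger proteins that bind GC-rich sites. Many of these genes are immediate early genes, which are transcribed within minutes when serum, growth factors or stress activate MAP kinases, without new protein synthesis, and whose RNAs are short-lived. In resting or steadily growing fibroblasts, Jund is known to be expressed broadly, while Fos and Egr1 are known for sharp and short bursts after serum.

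The arrays were alike in their overall values. The median log2 level lay between 5.97 and 6.0, pairs of arrays within a genotype correlated at 0.998 to 0.999, and the 25th percentile lay between 4.36 and 4.39. The brighter Atxn3 probe set read 6.53 to 6.81 in Atxn3-WT and 3.43 to 3.73 in Atxn3-KO MEFs, where it counted as low (a mean under the 25th percentile on each array). The dimmer Atxn3 probe set had means of 4.48 in Atxn3-WT and 4.13 in Atxn3-KO MEFs, where it was low too. Its groups overlapped, and its log2 difference was -0.35 (adjusted p = 0.117 in limma). The collagen genes of fibroblasts were bright, with Col1a1 at 13.28 ± 0.04 in Atxn3-WT and 13.19 ± 0.08 in Atxn3-KO MEFs (mean ± SD, n = 3 each). Of all 14 fibroblast markers 3 were called higher (1 without Atxn3-WT replicate 1) and 6 lower. That is 64.3%, where 31.8% of all genes were called. The 3 higher were Dcn, which rose by 1.91 on the log2 scale, Lum, low in both genotypes, at 0.60 and Pdgfrb at 0.25. Among the 6 lower were Col1a2 at -0.26, Col3a1 at -0.28, Fap at -0.40 and Thy1, which fell by 4.21. Markers low in both genotypes were 3 of 11 for macrophages (Ptprc, Itgam and Mrc1), 2 of 10 for epithelium (Cdh1 and Esrp1) and 4 of 8 for endothelium (Pecam1, Tek, Tie1 and Emcn). Others were not low, among them Cd14 at 7.73 and 7.79, Epcam at 8.54 and 8.92 and Flt1 at 9.76 and 8.13 in Atxn3-WT and Atxn3-KO MEFs. The summed linear level of the 11 macrophage markers was 682 to 739 in Atxn3-WT and 722 to 733 in Atxn3-KO MEFs, with 0 called by limma (3 higher and 1 lower at an unadjusted p under 0.05, and 1 called higher without Atxn3-WT replicate 2). That of 10 epithelial markers was 1221 to 1393 and 1498 to 1604, with 2 called higher (Krt18, low in Atxn3-WT MEFs, and Epcam) and 0 lower (1 without Atxn3-WT replicate 3). That of 8 endothelial markers was 1114 to 1132 and 532 to 551, with 1 called lower (Flt1, the brightest of the 8). Linear sums are weighted to the brightest markers. The median log2 difference was 0.04 for the epithelial and -0.0060 for the endothelial markers. Muscle markers had 1 of 10 called, lower (Tnnt2; 1 more was higher without Atxn3-KO replicate 3), and neural markers 1 of 9 higher (Map2) and 2 lower (Mbp and Tubb3). The part of these shifts in the results below was not tested. In bulk RNA, fewer cells of a type and less RNA per cell cannot be told apart. The sources used here do not state if each replicate was its own embryo or culture, so p-values speak only of how these samples vary, possibly for technical reasons, and their number limits the precision.

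Several AP-1 genes and Egr1 were higher in Atxn3-KO MEFs, and none of the 10 genes was lower. Each gene is represented below by its probe set with the highest mean over all 6 arrays. Junb, Fosl2, Jun, Fos and Egr1 passed an adjusted p of 0.05 in limma, so that 5 of 10 genes rose. This linear model draws the variance of each probe set toward a value common to all (variance moderation). Over all genes the same test called 31.8%, with 17.1% higher and 14.7% lower in Atxn3-KO MEFs. No member was called lower by limma, and at an unadjusted p under 0.05 there were 7 higher and 0 lower, where 42.6% of all genes passed (22.5% higher and 20.1% lower). The differences were modest: no member passed both thresholds of the study (a 2-fold change and an adjusted p no higher than 0.001), which 1.93% of all genes passed, 1.28% higher and 0.649% lower. At an unadjusted p with the same fold the count was also 0, and it was 0 in limma's test against a 2-fold change. The median log2 difference over the 10 genes was 0.30, with a range of 0.05 to 0.75, beside a median of 0.0021 over all genes. The 3 Atxn3-KO arrays lay wholly above the 3 Atxn3-WT arrays for 5 of the 10 genes, where groups did not overlap, in either direction, for 49.2% of all genes (25.3% higher and 23.9% lower).

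**Figure D1:**
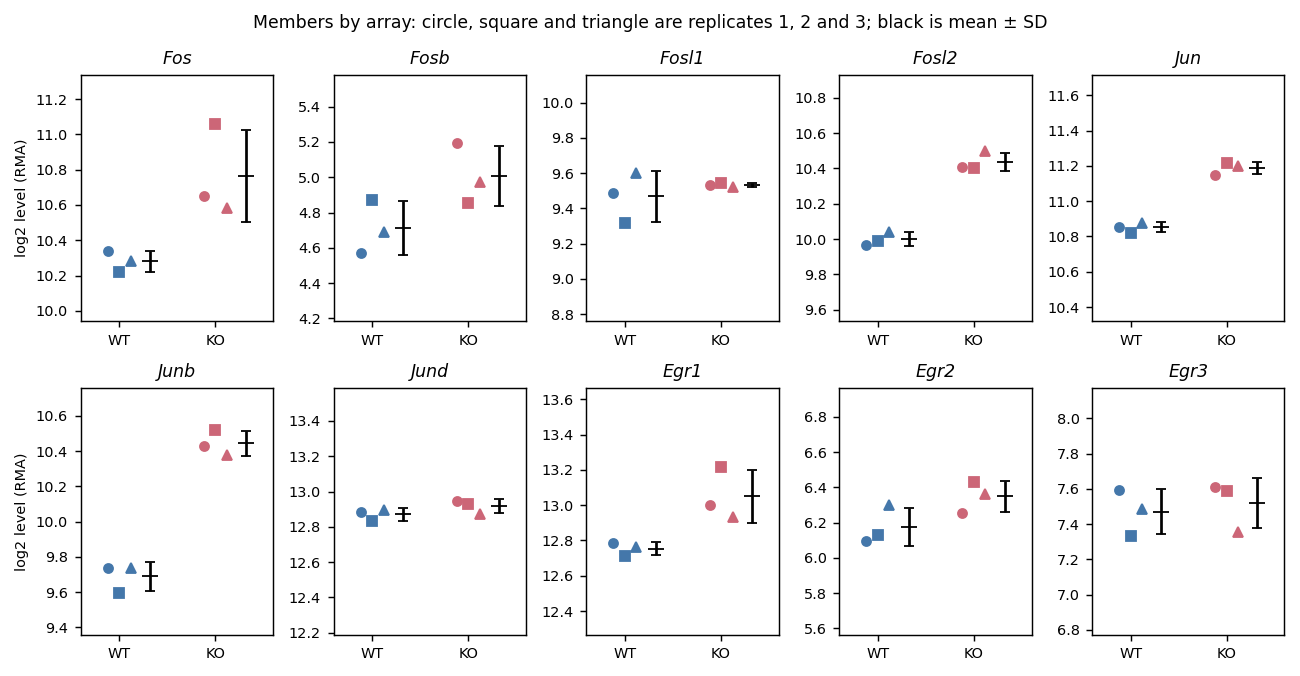
Log2 level on each array (vertical axis, a span of the same size in every panel) of the 10 genes, with Atxn3-WT in blue and Atxn3-KO in red, and the mean ± SD of 3 arrays in black. The Atxn3-KO points lie wholly above the Atxn3-WT points for Junb, Fosl2, Jun, Fos and Egr1 and overlap them for the other 5 genes.

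The promoters of the AP-1 genes that rose are shown because these genes are known to be switched on through elements just upstream of their start. RefSeq windows were held for 7 of the 10 genes, without Fosl1, Egr1 and Egr3. The 250 bases before the annotated start are printed 5′ to 3′ on the gene's own strand, in GRCm38.p6. Capitals mark matches, on either strand, to the AP-1 site TGANTCA, the AP-1 or cyclic AMP response octamer TGACNTCA, the response element core TGACG, the CArG box bound by serum response factor, the EGR site GCGNGGGCG and TATAAA. The core TGACG and the octamer overlap where the octamer's N is G.
Junb, chr8:84978749-84978998, minus strand: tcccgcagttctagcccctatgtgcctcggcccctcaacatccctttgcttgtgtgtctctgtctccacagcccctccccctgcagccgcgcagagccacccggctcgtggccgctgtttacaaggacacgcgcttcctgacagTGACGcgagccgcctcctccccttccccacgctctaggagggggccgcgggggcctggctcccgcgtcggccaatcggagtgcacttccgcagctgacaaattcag
Jun, chr4:95052223-95052472, minus strand: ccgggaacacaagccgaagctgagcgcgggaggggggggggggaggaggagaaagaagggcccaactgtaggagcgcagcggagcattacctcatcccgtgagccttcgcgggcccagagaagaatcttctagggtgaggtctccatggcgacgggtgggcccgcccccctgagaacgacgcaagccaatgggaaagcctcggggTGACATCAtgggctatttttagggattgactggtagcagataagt
Fos, chr12:85473640-85473889, plus strand: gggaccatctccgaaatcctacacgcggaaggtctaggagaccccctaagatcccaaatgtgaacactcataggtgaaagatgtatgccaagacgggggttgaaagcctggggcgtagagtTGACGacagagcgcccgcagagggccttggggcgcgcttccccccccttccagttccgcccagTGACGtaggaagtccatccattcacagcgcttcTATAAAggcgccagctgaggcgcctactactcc
Fosl2, chr5:32136222-32136471, plus strand: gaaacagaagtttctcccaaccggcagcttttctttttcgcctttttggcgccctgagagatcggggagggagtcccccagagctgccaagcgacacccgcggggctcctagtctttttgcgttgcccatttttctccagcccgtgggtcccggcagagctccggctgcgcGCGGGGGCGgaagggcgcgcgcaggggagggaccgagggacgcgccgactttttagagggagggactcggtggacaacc
In these windows Jun held the octamer as TGACATCA at bases -45 to -38 from its start, Fos held TGACG at -66 to -62 and at -129 to -125 beside a TATA box at -33 to -28, Junb held TGACG at -106 to -102, and Fosl2 held an EGR site at -79 to -71. Among the 7 genes, TGACG was in 4 windows (Fos, Fosb, Junb and Egr2), or 57.1%, while 19.8% of 27025 genes with a window held it. The EGR site was in 2 (Fosb and Fosl2; 5.33% of all genes), the octamer in 1 (8.55%), the CArG box in 1, Egr2 (1.62%), and TGANTCA in 0 (7.82%). Egr2 has 5 listed start sites, and any of its windows counted. TGACG was likewise in the windows of 13 of 22 other immediate early genes, or 59.1%. A match is a description of letters in this stretch. An absent match, such as that of the CArG box in Fos, says nothing of sites farther upstream, which were not searched.

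Of the Jun genes, Junb and Jun rose and Jund did not pass the test. Junb, a Jun protein often described as a weaker activator than Jun, had log2 levels of 9.73, 9.60 and 9.74 in Atxn3-WT MEFs and 10.43, 10.52 and 10.38 in Atxn3-KO MEFs. The genotypes were separated by 0.64, far more than either spanned, which was 0.14 in each. The mean rose from 9.69 ± 0.08 to 10.44 ± 0.07 (SD, n = 3 each), a log2 difference of 0.75 (standard error 0.060, 95% interval 0.61 to 0.90, adjusted p = 0.000148 in limma), or 1.69-fold. It was larger in size than the difference of 97.5% of all probe sets.

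Jun, the founding AP-1 subunit, had levels of 10.86, 10.82 and 10.88 in Atxn3-WT and 11.15, 11.21 and 11.20 in Atxn3-KO MEFs for its brighter probe set. Replicates were tight and did not overlap between genotypes. The log2 difference was 0.34 (standard error 0.043, 95% interval 0.23 to 0.44, adjusted p = 0.00132 in limma), or 1.26-fold. The second Jun probe set read 9.80, 9.76 and 9.78 against 9.82, 9.92 and 9.76, with overlapping groups and a difference of 0.05 (95% interval -0.07 to 0.18, adjusted p = 0.511 in limma). The probe sets of Jun thus differ in their readout, and their intervals do not overlap. Averaged over both probe sets, the Jun difference was 0.20 (standard error 0.040, adjusted p = 0.00666 in limma).

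Jund, the Jun protein that is least dependent on growth signals, lay at 12.88, 12.83 and 12.90 in Atxn3-WT and 12.95, 12.93 and 12.87 in Atxn3-KO MEFs. The groups overlapped, and the interval of the difference, -0.06 to 0.15 around 0.05, bounds it to a small size on this probe set. A dimmer Jund probe set read 5.28, 5.23 and 5.24 against 5.27, 5.21 and 4.79, where the low value of Atxn3-KO replicate 3 stood apart. Its difference was -0.16 (95% interval -0.44 to 0.12, adjusted p = 0.382 in limma), and it was -0.01 without that array and -0.25 without Atxn3-KO replicate 1.

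Of the Fos genes, Fosl2 and Fos rose. Fosl2, or Fra-2, a Fos protein without the strong activation domain of Fos, read 9.97, 9.99 and 10.04 in Atxn3-WT and 10.41, 10.41 and 10.50 in Atxn3-KO MEFs. The groups stood 0.36 apart. The log2 difference was 0.44 (standard error 0.048, 95% interval 0.33 to 0.55, adjusted p = 0.000640 in limma), or 1.35-fold. As for Jun, the dimmer probe set showed less, with 7.5, 7.56 and 7.43 against 7.53, 7.59 and 7.78, overlapping groups and a difference of 0.13 (95% interval -0.04 to 0.31, adjusted p = 0.245 in limma), which was 0.06 without Atxn3-KO replicate 3. The mean of both was 0.29 higher in Atxn3-KO MEFs (standard error 0.052, adjusted p = 0.00378 in limma).

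Fos, the prototype of the immediate early genes, read 10.34, 10.22 and 10.28 in Atxn3-WT and 10.65, 11.06 and 10.58 in Atxn3-KO MEFs. All Atxn3-KO arrays lay above the Atxn3-WT arrays, and Atxn3-KO replicate 2 was the highest by far. The spread was wider in Atxn3-KO MEFs (SD 0.26) than in Atxn3-WT MEFs (SD 0.06, n = 3 each), a difference in spread that was not tested. The log2 difference was 0.48 (standard error 0.12, 95% interval 0.20 to 0.77, adjusted p = 0.0232 in limma), or 1.40-fold. Without Atxn3-KO replicate 2 it was 0.34 (adjusted p = 0.0111). The call was lost when any Atxn3-WT array was left out, with adjusted p-values of 0.0554, 0.0726 and 0.0619 without replicates 1, 2 and 3, and differences of 0.45 to 0.51.

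Fosb and Fosl1 did not pass the test. Fosb, which is induced by serum like Fos, read 4.57, 4.87 and 4.69 against 5.19, 4.86 and 4.97, close to the 25th percentile of the arrays. Its highest Atxn3-WT array and lowest Atxn3-KO array crossed by a small margin, and the difference was 0.30 (95% interval 0.05 to 0.54, adjusted p = 0.0823 in limma). Fosl1, or Fra-1, a late-responding Fos protein of proliferating and invasive cells, read 9.49, 9.31 and 9.60 against 9.53, 9.55 and 9.52. The Atxn3-KO arrays fell inside the range of the Atxn3-WT arrays, with a difference of 0.06 (95% interval -0.11 to 0.24, adjusted p = 0.591 in limma). Its other probe set had a difference of -0.0030 (95% interval -0.20 to 0.19).

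Of the EGR genes, Egr1 rose. Egr1, a zinc finger factor that responds to nearly every growth signal in fibroblasts, read 12.78, 12.71 and 12.77 in Atxn3-WT and 13.00, 13.22 and 12.93 in Atxn3-KO MEFs. Atxn3-KO replicate 2 was again the highest, and the groups stood 0.15 apart. The log2 difference was 0.30 (standard error 0.077, 95% interval 0.12 to 0.48, adjusted p = 0.0272 in limma), or 1.23-fold. Its call was lost without Atxn3-WT replicate 1, 2 or 3 (adjusted p = 0.0632, 0.0824 and 0.0680) and without Atxn3-KO replicate 1 (0.0531), with differences of 0.28 to 0.32, and it held without Atxn3-KO replicate 2, at 0.21 (adjusted p = 0.0426). Fos and Egr1 were therefore called with less margin than Junb, Fosl2 and Jun, which kept their calls without any single array.

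Egr2, known for its part in hindbrain and Schwann cell development, read 6.10, 6.13 and 6.30 against 6.26, 6.43 and 6.36, with overlapping groups. The difference was 0.17 (95% interval 0.006 to 0.34, adjusted p = 0.124 in limma), and 0.05 for its other probe set (95% interval -0.16 to 0.27). Egr3, which shares the EGR binding site, read 7.59, 7.33 and 7.49 against 7.61, 7.59 and 7.36 on its brighter probe set, a difference of 0.05 (95% interval -0.17 to 0.26, adjusted p = 0.761 in limma). The dimmer Egr3 probe set had groups that did not overlap, at 6.17, 6.20 and 6.23 against 6.27, 6.64 and 6.46. Its difference of 0.26 (95% interval 0.05 to 0.46) missed the threshold by limma (adjusted p = 0.0735) and passed without Atxn3-KO replicate 1 (0.35, adjusted p = 0.0139), while without Atxn3-KO replicate 2 the difference was 0.17 (adjusted p = 0.161). Neither gene was therefore settled in either direction by these arrays.

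Over all 16 probe sets, 5 were called higher (31.2%) and 0 lower by limma (8 and 0 at an unadjusted p under 0.05, which 36.6% of all probe sets passed, 17.2% higher and 19.4% lower), beside 26% called among all 45037 probe sets, 12.5% higher and 13.5% lower. None of the 16 passed the study's thresholds, as 1.31% of all probe sets did (0.795% higher and 0.515% lower). Groups did not overlap, with Atxn3-KO higher, for 6 of the 16, and for 41.1% of all probe sets, 19.2% higher and 21.9% lower. Probe sets of 1 gene share a target and are not replicates. In Fosl2 and Jun the call rests on the brighter of the 2 probe sets, whereas Junb, Fos, Fosb and Egr1 have only 1. No probe set of the array annotation names a member together with another gene.

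**Figure D2:**
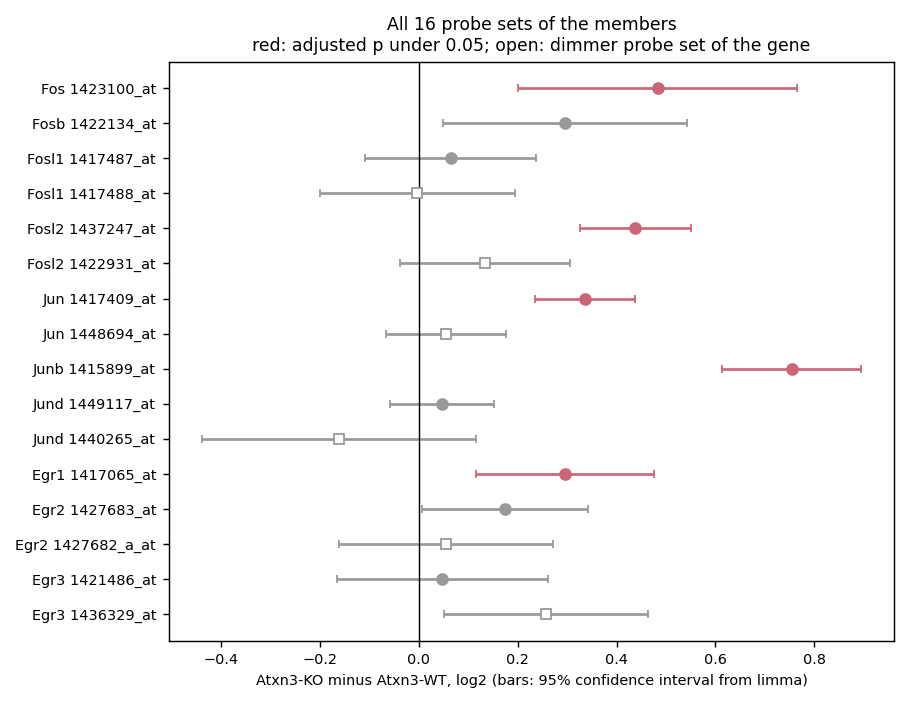
Log2 difference between Atxn3-KO and Atxn3-WT MEFs (horizontal axis) for each of the 16 probe sets, with the 95% confidence interval from limma as bars. Filled circles are the brightest probe set of a gene, open squares the other one, and red marks an adjusted p under 0.05. The 5 red points lie between 0.30 and 0.75, and the dimmer probe sets of Jun and Fosl2 lie at 0.05 and 0.13.

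The members also moved between replicate arrays of 1 genotype. On Atxn3-KO replicate 2, 8 of the 10 genes lay above the mean of their genotype, against 54.9% of all genes. Fos was 0.30 and Egr1 0.17 above it there, and on Atxn3-KO replicate 3 Fos was 0.18 and Egr1 0.12 below it, so that Fos and Egr1 ranked these 3 arrays alike. Of 28 other immediate early genes, 21 lay above their genotype mean on Atxn3-KO replicate 2 as well. On Atxn3-WT replicate 2, 1 of the 10 members (Fosb) and 7 of the 28 other genes lay above the mean, against 44.7% of all genes. Fosb was 0.16 above its mean on that array and 0.15 below on Atxn3-KO replicate 2, where Fosl2 was also below, by 0.03. With 3 arrays a genotype these are descriptions.

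**Figure D3:**
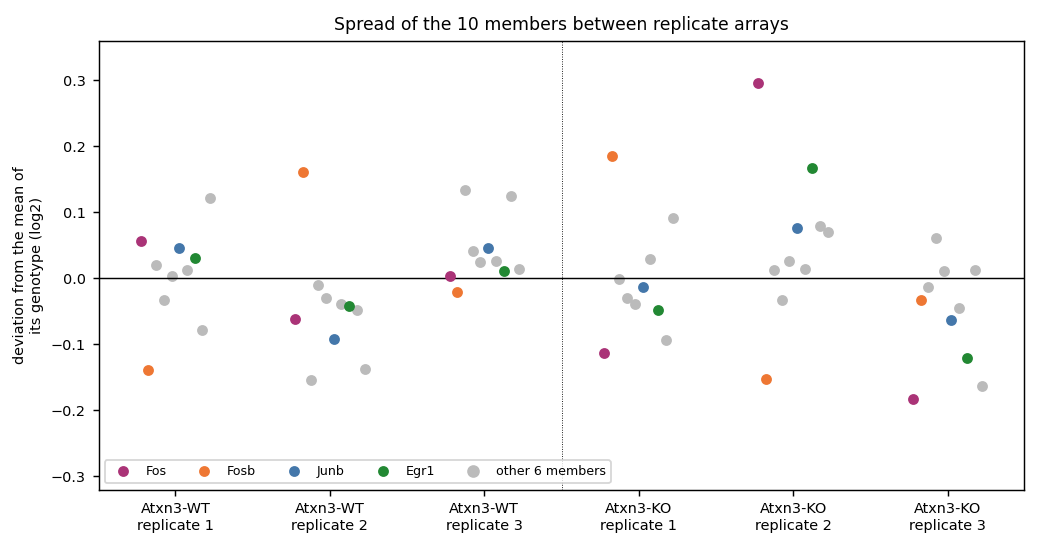
Deviation of each of the 10 members from the mean of its own genotype (vertical axis, log2) on each of the 6 arrays. Fos (purple) and Egr1 (green) are highest on Atxn3-KO replicate 2, at 0.30 and 0.17, and Fosb (orange) lies on the opposite side there, at -0.15.

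Most of a list of other immediate early genes rose too. The list was chosen with earlier results of these data known, so its counts are a description and no independent support. Of 28 such genes, all measured, 18 were higher and 3 lower in Atxn3-KO MEFs by limma at an adjusted p under 0.05, so that 75% were called, where 31.8% of all genes were, and their median log2 difference was 0.26. The mean log2 level of the 28 genes was 9.45 to 9.51 in Atxn3-WT and 9.79 to 9.87 in Atxn3-KO MEFs, so the groups did not overlap. Ptgs2, which encodes the inducible cyclooxygenase of prostaglandin synthesis, rose from 7.49 ± 0.10 to 8.77 ± 0.09 (SD, n = 3 each), a log2 difference of 1.27 (standard error 0.071, adjusted p = 2.81e-05 in limma). Klf4, a Krüppel-like factor of cell identity and growth arrest, rose by 1.04 (standard error 0.047). These 2 genes passed the thresholds of the study. Errfi1, a feedback inhibitor of EGF receptors, rose by 0.92 (standard error 0.069), and Plk2, a serum-inducible polo-like kinase, by 0.85 (standard error 0.045). The 3 that fell, named after their values were seen, were Klf2, a flow- and quiescence-linked Krüppel-like factor, with -0.52, Rhob, a small GTPase, with -0.29, and Gadd45b, a stress-response protein, with -0.27. Within this list, Dusp1, the phosphatase that inactivates MAP kinases, and Zfp36, which promotes decay of short-lived RNAs, also named after their values were seen, had 0.36 and 0.80.

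**Figure D4:**
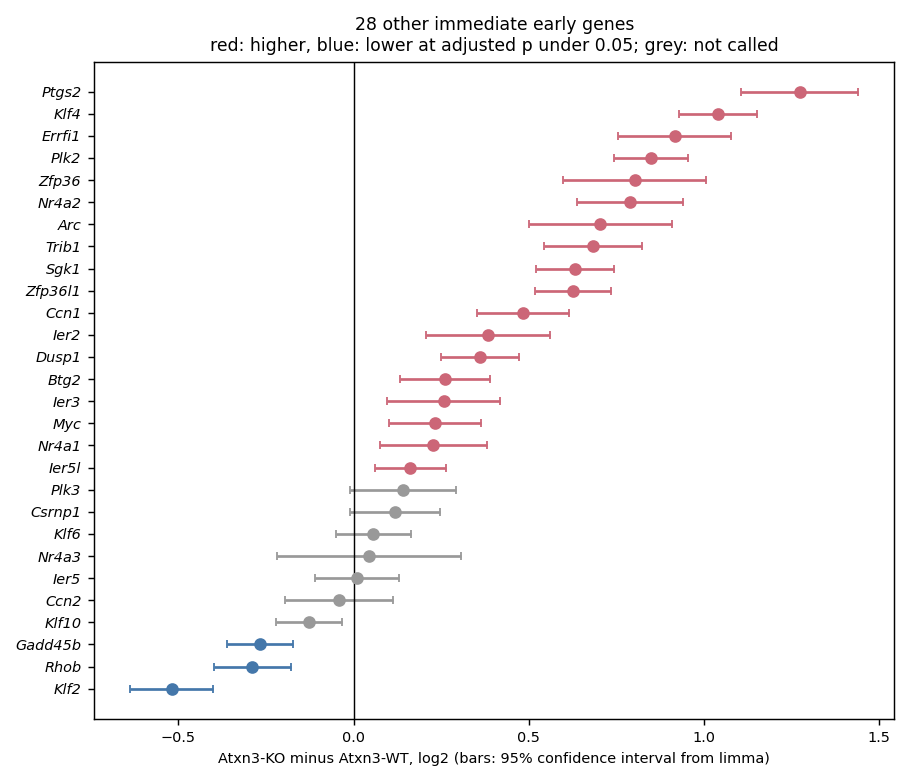
Log2 difference between Atxn3-KO and Atxn3-WT MEFs (horizontal axis) of the 28 other immediate early genes, with 95% confidence intervals from limma. Genes called higher are red, lower blue and not called grey, and the called genes range from -0.52 for Klf2 to 1.27 for Ptgs2.

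None of the measured partners of AP-1 or relatives of EGR was called higher. Of 13 other AP-1 and leucine zipper partners, 11 were measured, and 0 were higher and 3 lower by limma (0 higher and 5 lower at an unadjusted p under 0.05), with a median of -0.09. The share called, 27.3%, was near the 31.8% of all genes. Maf, a large Maf protein of differentiation, fell from 10.51 ± 0.08 to 8.66 ± 0.10 (SD, n = 3 each), a log2 difference of -1.84 (standard error 0.068, adjusted p = 4.12e-06 in limma). Atf3, itself a stress-induced immediate early factor that pairs with Jun proteins, fell by 0.47 (standard error 0.045), and Atf2, a kinase-activated partner of Jun, by 0.23 (standard error 0.040). Among 4 EGR relatives and co-repressors, Wt1, a zinc finger factor of kidney and gonad development, was called lower with -0.30 (standard error 0.088, adjusted p = 0.0424 in limma), a share of 25%, and Egr4, Nab1 and Nab2 were not called. The Wt1 level, 4.72 and 4.42 in the mean, was close to the 25th percentile, and its call was lost without Atxn3-WT replicate 1 or 3 or any Atxn3-KO array. Nab2, a co-repressor that EGR factors are known to induce, had 0.07 (95% interval -0.07 to 0.21).

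Upstream regulators and feedback inhibitors moved in both directions. Of 20 upstream kinases and factors, 15 were measured, with 5 higher and 2 lower by limma and a median of -0.0076. The share called was 46.7%, beside 31.8% of all genes (17.1% higher and 14.7% lower). Rps6ka3, the kinase RSK2 that acts below ERK, rose by 0.63 (standard error 0.046). Mrtfa and Mrtfb, actin-regulated partners of serum response factor, rose by 0.44 (standard error 0.048) and 0.32 (standard error 0.055), and Braf, a kinase at the top of the ERK cascade, by 0.41 (standard error 0.071). Srf, serum response factor itself, had -0.015 (95% interval -0.12 to 0.09). Elk4, a partner of serum response factor, and Creb1, the cyclic AMP response factor, were the 2 that fell, with -0.31 and -0.18, and Mapk9, the kinase JNK2, rose by 0.18; these and Srf were named after their values were seen. The count called lower was 1 without Atxn3-WT replicate 1 or 2 or Atxn3-KO replicate 2. Of 15 MAP kinase feedback inhibitors, 2 were higher and 4 lower, a share of 40%, with a median of -0.05. Spred2 and Spry2, which restrain the ERK cascade, fell by 0.53 (standard error 0.049) and 0.30 (standard error 0.070). Dusp14 fell by 0.46 (standard error 0.044) and Dusp16 rose by 0.25 (standard error 0.045), both dual-specificity phosphatases. The other two called were phosphatases of the same kind, named after their values were seen: Dusp7 at 0.23 and Dusp10 at -0.21. Without Atxn3-WT replicate 3, 2 inhibitors were called lower.

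Known targets of the factors were called in both directions too. Of 18 AP-1 target genes, 16 were measured, 4 were higher and 3 lower by limma, and the median log2 difference was 0.03. Plaur, the urokinase receptor, rose from 8.58 ± 0.04 to 9.03 ± 0.06 (SD, n = 3 each), by 0.45, and Ccl2, a monocyte chemokine, rose by 0.30. Ccnd1, cyclin D1, fell by 0.48, and Mt2, a metallothionein, by 0.40. The rest of the called targets, named after their values were seen, were the metalloproteinase genes Mmp3 at 0.24 and Mmp9 at -0.21 and the cytokine gene Lif at 0.17. The collagenase gene Mmp13, a textbook AP-1 target named after its values were seen, had means of 3.17 and 3.16 and was low in both genotypes. Of 13 EGR target genes, 11 were measured, 3 were higher and 2 lower, with a median of 0.09. F3, tissue factor, rose from 8.88 ± 0.04 to 10.17 ± 0.15 (SD, n = 3 each), a log2 difference of 1.29 (standard error 0.078, adjusted p = 4.24e-05 in limma), and passed the thresholds of the study. Pdgfa, a platelet-derived growth factor chain, and Thbs1, thrombospondin 1, rose by 0.61 and 0.46, and Pdgfb fell by 0.49. Tgfb1, named after its values were seen, had -0.15, and the count of targets called lower was 1 without any single array. The shares called, 43.8% and 45.5%, are to be read beside 31.8% of all genes.

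Genes of heat shock and of the cell cycle are given as measures of handling and growth. Of 10 stress genes, 1 was higher and 2 lower by limma, a share of 30%, with a mean log2 level of 11.32 to 11.35 in Atxn3-WT and 11.23 to 11.27 in Atxn3-KO MEFs. Their summed linear level, weighted to the brightest genes, overlapped, at 50276.5 to 51288.2 in Atxn3-WT and 51026.2 to 52089.8 in Atxn3-KO MEFs. Hspb1, a small heat shock protein, rose by 0.37, while Trib3, a pseudokinase induced by ATF4, fell by 0.69 and Hsph1, a chaperone of the heat shock response, by 0.15 with an adjusted p of 0.0483 in limma. The count called lower was 1 without any single array other than Atxn3-WT replicate 2. Of 10 cell cycle markers, 9 were measured, with 1 higher and 2 lower, a share of 33.3%, and a median of -0.01. Over all genes 31.8% were called. Mcm2 rose by 0.35, and Mcm5 and Top2a fell by 0.17 and 0.16, and 0 or 1 were called lower when any array was left out. The part of either list in the rise of the early response genes was not tested.

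**Figure D5:**
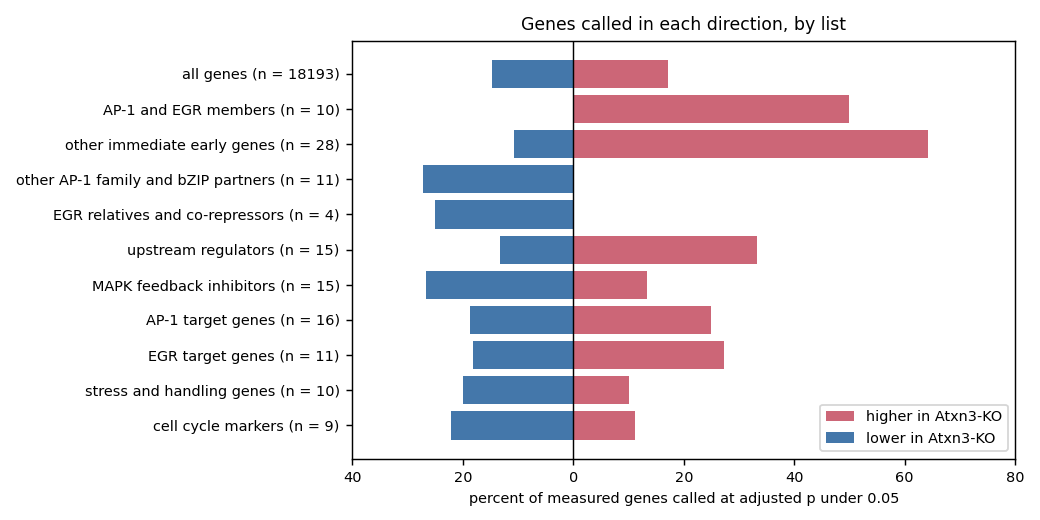
Percent of the measured genes of each list (horizontal axis, from 0 in both directions) called higher (red, right) or lower (blue, left) in Atxn3-KO MEFs at an adjusted p under 0.05. The members (5 of 10 higher) and the other immediate early genes (18 of 28 higher, 3 lower) lie beside all genes, at 17.1% higher and 14.7% lower.

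Genes with profiles most like the members that differed most were found by the root-mean-square distance between log2 levels centred on their mean over the 6 arrays. For Junb these were Ssbp2, a single-stranded DNA binding protein, at 0.018, Repin1, a zinc finger protein, at 0.026, and Eif4e3, a cap-binding protein, at 0.032, with differences of 0.76, 0.78 and 0.75. For Fos they were Ndnf, a secreted neurotrophic factor, at 0.079, Liph, a lipase, at 0.085, and the predicted gene Gm8350, at 0.085. The mean of Ndnf in Atxn3-WT MEFs, 4.24, was low, so its level there is not exact.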

How the data were processed

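Each of 6 Affymetrix arrays carried RNA of 1 MEF sample, 3 of Atxn3-WT and 3 of Atxn3-KO, with genotypes taken from the labels. The authors deposited log2 values for 45101 probe sets, normalized by robust multi-array average (RMA), which corrects background, makes the distributions of the arrays alike and summarizes probes. If all transcripts moved alike, this step would hide it. Versions of the authors' RMA and limma software are not given in the sources used here. Scanned intensities were not analysed here.

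From the deposited log2 values, 64 control probe sets were left out, and limma 3.58.1 in R 4.3.3 fitted the genotype difference (lmFit and eBayes) with every array weighted equally, because the methods name a weighted model but no weights. Benjamini-Hochberg adjustment covered all 45037 remaining probe sets, dim ones included. Genes were named from the platform annotation (34945 probe sets name 1 gene, of which 34741 matched the RefSeq table of GRCm38.p6). Promoter letters came from the RefSeq windows of that build. A level below the 25th percentile of every array was taken as low. Named genes were all members, and from each list at most 4 called genes, those with the largest difference, or, with none called, at most 2 of the highest level. For the 2 called members that differed most, the 3 genes nearest in profile were named. Col1a1, Col1a2, Col3a1, Pdgfrb, Cd14, Egr4, Nab1, Nab2 and the low markers were named outside this rule, after their values were seen, as were the genes so marked in the text. The members and lists were chosen with earlier results of these data known.

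The fit was first tested on simulated data, with 50 probe sets changed at each size. It called, in the right direction, 28% of true log2 differences of 0.3 and 58% of 0.5. For differences of 0.75 and 1 the shares were 90% and 92%, and there were 4 false calls. Far fewer probe sets were changed there than were called in the data, so these shares need not hold for the data. Same-numbered arrays of both genotypes did not deviate together (correlations 0.021, -0.023 and -0.036), so replicate numbers were not taken as pairs. The alternatives changed the weights, normalization, variance model, threshold, probe set rule or low-level filter, added a replicate block, or left out 1 array. The low-level filter left out probe sets whose mean level was under the median of all probe sets. With 3 arrays a genotype, precision is limited by their number.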

Additional observations from a re-analysis of the deposited data

How the results depend on the processing

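The calls of the Junb probe set and of the brighter Fosl2 and Jun probe sets were kept under all 14 alternatives run for them. Their log2 differences were 0.71 to 0.79, 0.41 to 0.46 and 0.32 to 0.35. The dimmer Fosl2 and Jun probe sets were called in 0 of 14 each. Averaged over the probe sets of a gene, the differences were 0.29 for Fosl2 and 0.20 for Jun, outside these ranges but still called. Fos was called in 10 of 14 (adjusted p 0.000800 to 0.113) and Egr1 in 8 of 14 (0.000642 to 0.101), always with a higher level in Atxn3-KO MEFs. The 5 member genes and 5 member probe sets called higher became 3 and 3 without variance moderation (where Fos had 0.113 and Egr1 0.101) and 3 to 5 when single arrays were left out, and 3 genes passed an adjusted p under 0.01. With a replicate block 4 genes were called, since Egr1 reached 0.0545 (Fos 0.0425), and not every array correlated best with its own number. Fosb was called only with a robust variance trend (0.0480). The dimmer Egr3 probe set passed with the low-level filter (0.0329) and both trend models (0.0447 and 0.0441). No member was called lower under any alternative. Signs turned only for uncalled values near 0. The dimmer Fosl1 probe set, at -0.0030, read 0.0011 with repeated quantile normalization and 0.0095 with median centring. When single arrays were left out it ranged from -0.0786 to 0.0522, the brighter Fosl1 probe set from -0.0131 to 0.131, the dimmer Egr2 probe set from -0.0199 to 0.134 and the brighter Egr3 probe set from -0.0213 to 0.129. The causes were not tested. Centring moved the median difference of all probe sets by 0.013. The other immediate early genes called higher ranged from 14 to 18 over the alternatives and those called lower from 3 to 4. In the other lists, the stress genes called lower ranged from 0 to 4, and the EGR targets called lower fell from 2 to 1 with the block or median centring. Wt1 lost its call without variance moderation. The low-level filter left Wt1 out, so it was not tested there. Values under the median of the arrays (among them those of Fosb and the dimmer Jund probe set) limit what the array resolves.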
